A study of Mus musculus with 11 samples.

Results

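Broad promoter regions were stretches of accessible chromatin at least 1800 bp wide that lay within 1 kb of an annotated transcript start of a protein-coding gene. They were selected on width, in a pooled ATAC-seq list of 94963 regions from mouse bone-forming cells, and 937 regions met the rule. They made up 0.987% of the list, 5.25% of its 17852 coding promoter regions and 78.1% of its 1199 regions of that width. Their genes numbered 1071, which was 7.63% of the 14040 coding genes that had any promoter region in the list. ATAC-seq measures open chromatin by the sites at which the Tn5 transposase cuts DNA and inserts adapters. The study profiled 11 cultures of MPC2, a conditionally immortalised clone of mouse mesenchymal progenitors, either undifferentiated (MSC) or after 3 weeks of osteogenic differentiation (osteocyte). The 4 groups were MSC with DMSO vehicle (n = 3), MSC with 50 uM FG-4592 for 48 h (n = 3), osteocyte with vehicle (n = 2) and osteocyte with FG-4592 at the same dose and time (n = 3). FG-4592 (Roxadustat) inhibits the HIF prolyl hydroxylases and so mimics hypoxia. All groups therefore shared one clone and one immortalising system.

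The list held 1 value per region over all cultures and none per culture. From this list alone no difference between groups, no replicate error and no p-value could be obtained, and the depth of each culture was unknown. Intervals below are 95% intervals over regions that cover counting error only, since neighbouring regions and regions of one gene are not independent. Width and level came from the same cuts, so both are given as a description. A region was the union of overlapping peaks from several libraries. The libraries behind a region are not named, and their part in its width was not tested. Among marker genes of the labelled cells, 15 of 20 mesenchymal and osteocyte markers had a promoter region in the list, against 5 of 22 markers of other lineages and 14040 of all 21924 coding genes.

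A promoter becomes accessible when nucleosomes are moved away from the transcript start so that transcription factors and RNA polymerase can bind. Most mammalian promoters lie in CpG islands, stretches rich in the dinucleotide CG that escaped the loss of CG elsewhere in the genome. Promoters of housekeeping genes are commonly compact, and they hold sites for factors such as Ets proteins, NF-Y (which binds the CCAAT box) and Nrf1 close to the start. Genes for developmental regulators often have long islands, several alternative starts and broad open chromatin. AP-1, the dimer of Fos and Jun proteins, binds mainly at enhancers and at inducible promoters.

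Sequences of members named below are shown for the 150 bases before the nearest coding start where these held no annotated exon, read on the strand of the gene from the GRCm38 genome (mm10 coordinates). Capitals mark matches on either strand to the GC box (GGGCGG, bound by Sp and Klf factors), the CCAAT box (CCAAT), the TATA box (TATAAA), an Ets site (CCGGAAG), a CRE (TGACGTCA) or AP-1 (TGACTCA or TGAGTCA). A match is a description of the letters and not a binding site. In the whole set of 17852 coding promoter regions, 66.2% held a GC box, 58.0% a CCAAT box, 17.4% a TATA box, 21.8% an Ets site, 3.46% a CRE and 15.2% an AP-1 match. The 6 stretches come from the widest member (Cdk6), the member with the highest level (Gsk3b) and 4 regulators. GC and CCAAT boxes stood in several of them, a TATA box only in that of Gsk3b, and Cdk6 had none of these letters although 62% of its bases were G or C.
Cdk6 (chr5:3343582-3343731, plus strand): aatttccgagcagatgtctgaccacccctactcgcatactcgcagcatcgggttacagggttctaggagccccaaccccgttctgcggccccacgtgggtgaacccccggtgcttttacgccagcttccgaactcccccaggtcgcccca
Gsk3b (chr16:38088851-38089000, plus strand): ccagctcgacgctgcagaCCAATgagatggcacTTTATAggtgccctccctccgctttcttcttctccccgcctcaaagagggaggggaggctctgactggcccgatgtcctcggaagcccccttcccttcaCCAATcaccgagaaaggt
Jun (chr4:95052223-95052372, minus strand): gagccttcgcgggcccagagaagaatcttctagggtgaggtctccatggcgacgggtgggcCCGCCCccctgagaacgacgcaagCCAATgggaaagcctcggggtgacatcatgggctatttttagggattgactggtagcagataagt
Dusp6 (chr10:99263081-99263230, plus strand): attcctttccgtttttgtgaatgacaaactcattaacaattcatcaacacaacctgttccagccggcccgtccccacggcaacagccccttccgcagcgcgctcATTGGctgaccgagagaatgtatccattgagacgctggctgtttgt
Runx1 (chr16:92697329-92697478, minus strand): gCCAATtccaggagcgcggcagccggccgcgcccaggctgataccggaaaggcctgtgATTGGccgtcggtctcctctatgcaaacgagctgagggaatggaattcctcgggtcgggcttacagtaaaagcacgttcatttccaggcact
Klf4 (chr4:55532467-55532616, minus strand): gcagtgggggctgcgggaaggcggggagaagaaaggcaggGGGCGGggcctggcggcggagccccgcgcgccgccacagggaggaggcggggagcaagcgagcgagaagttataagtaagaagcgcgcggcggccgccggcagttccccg

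A second set, chosen after the matches had been seen, shows AP-1 matches in wide members with little or no CpG island. Each window has 30 bases on both sides of the match in capitals, lies outside annotated exons and is read on the strand of the gene. They lie in the regions of Ptges (prostaglandin E synthase), Kctd10, Ddr2 (a collagen receptor) and Ssc5d, and the distance is from the nearest start to the centre of the match.
Ptges (chr2:30929051-30929117, minus strand, 779 bp): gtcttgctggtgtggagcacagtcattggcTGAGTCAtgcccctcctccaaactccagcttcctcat
Kctd10 (chr5:114372294-114372360, minus strand, -185 bp): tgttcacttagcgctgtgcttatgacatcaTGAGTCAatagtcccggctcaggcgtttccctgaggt
Ssc5d (chr7:4925164-4925230, plus strand, -588 bp): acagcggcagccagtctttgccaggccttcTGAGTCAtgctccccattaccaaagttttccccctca
Ddr2 (chr1:170111169-170111235, minus strand, -440 bp): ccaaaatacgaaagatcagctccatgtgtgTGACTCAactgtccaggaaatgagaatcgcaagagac

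Width among the members was concentrated near the limit. The median was 1992 bp (quartiles 1885 and 2171), with 280 members at most 1900 bp wide, and the widest had 3573 bp. There was no gap at the limit itself, with 30 coding promoter regions from 1800 to 1809 bp and 30 from 1790 to 1799 bp. Just above it, at 1800 bp, stood the regions of Metrnl (level 6.31 log2 CPM), Nmt2 (7.20) and Capza1 with St7l (5.68). Just below it, at 1799 bp, stood those of Fkbp10 with P3h4 (6.83), Brpf3 (5.84) and 9930021J03Rik (6.29).

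The level of a region was the average log2 CPM over all cultures, in which cuts are scaled to library size. Members had a median of 6.04 (quartiles 5.56 and 6.46, range 3.99 to 8.40), against 4.79 for the 5134 coding promoter regions 800 to 1200 bp wide. The difference was 1.26 (interval 1.19 to 1.32). Per kb of region, members had a median of 31.4 CPM, the 4562 coding promoter regions between 1200 and 1800 bp had 31.5, and those of 800 to 1200 bp had 27.1. On the log2 scale the level per kb was 0.21 above the 800 to 1200 bp class (0.16 to 0.28) and differed by -0.01 from the class in between (-0.06 to 0.06). Within the members, Spearman rho over 937 regions was 0.199 between width and level and -0.0244 between width and level per kb. Together the members held 6.64% of the summed CPM of the list in 3.45% of its summed width.

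**Figure D1:**
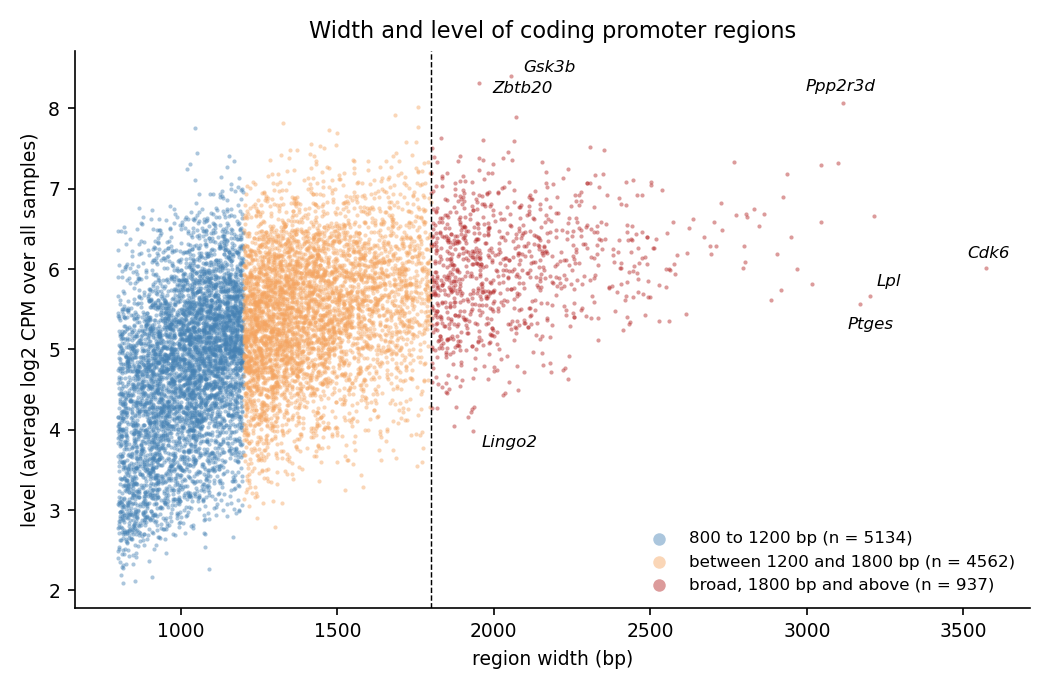
Width in bp (horizontal) against level in average log2 CPM over all samples (vertical) for 937 broad coding promoter regions, 4562 between 1200 and 1800 bp and 5134 of 800 to 1200 bp, 1 point per region, with the limit of 1800 bp dashed. Levels rise with width from class to class, and the members spread from 3.99 (Lingo2) to 8.40 (Gsk3b).

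Cdk6, a kinase that drives entry into the cell cycle, had 3573 bp at chr5:3341116-3344688 with 5 annotated coding starts spread over 2827 bp. Ptges had 3169 bp with 1 start at its upstream end, so that 2960 bp lay downstream of the start. Ppp2r3d had 3115 bp and was the only one of the 12 widest members that also stood among the 8 highest levels, at 8.07 log2 CPM. The region of 3100 bp at chr10:127288386-127291485 held 7 starts of Ddit3, a stress-induced transcription factor also called CHOP, and of its neighbour Mbd6. Cflar, an inhibitor of caspase 8, and Nr3c1, the glucocorticoid receptor, each had 3044 bp, with starts spread over 2378 and 2018 bp. The chromatin genes Phf21a (3017 bp) and Arid1b (2948 bp) and the neuronal growth protein gene Basp1 (2968 bp) followed. Lpl and the region shared by Ctbp2 and Fgfr2 also stood among the widest, with 3203 and 3215 bp.

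At the extremes, level and width mostly picked different members. Gsk3b, the kinase that marks beta-catenin for destruction, had the highest level of all members at 8.40 log2 CPM in 2054 bp. It was followed by Zbtb20 (8.31 in 1954 bp), which like Gsk3b lies on chromosome 16, and after Ppp2r3d by the region of Fam72a and Srgap2 (7.89), that of Cdca2 and Kctd9 (7.63), Garnl3 (7.61), that of Nab2 and Nemp1 (7.60) and that of Lpxn and Zfp91 (7.52). Of the 8 highest, 4 were shared by a pair of coding genes. Per kb, the regions of Nfya with Oard1 (log2 CPM per kb of 6.66) and of Kat6b (6.54) joined the top 8, and Nfya encodes a subunit of the NF-Y factor named above. At the other end stood Lingo2, a neuronal membrane protein gene, with 3.99 log2 CPM and 3.04 per kb, followed by Pqlc1 (3.15), Plb1 (3.22), Tmtc2 (3.28), Fam118b with Rpusd4 (3.31), Slitrk5 (3.33), Chid1 (3.37) and Stc1 (3.41). The region of Chid1 contained no start, and those of Pqlc1, Plb1 and Chid1 had no CpG island. The 43 members on chromosome 16 had a median of 5.34 log2 CPM per kb, against 4.96 for the 875 on the other autosomes and 4.63 for the 19 on the X chromosome, and no member lay on the Y chromosome. The same order of these 3 groups was seen in the level itself, at 6.39, 6.03 and 5.69 log2 CPM, and its cause was not tested. In the 800 to 1200 bp class the medians per kb were 5.07 on chromosome 16 and 4.31 on the X chromosome, so this order was not particular to broad regions.

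Broad promoters were marked by long CpG islands. An island was a run of overlapping or touching 200-bp windows that each had at least 55% G and C and an observed over expected CpG of at least 0.6, and its length was counted beyond the region where it ran on. The longest island of a member had a median length of 1369 bp (quartiles 936 and 1808), against 1011 bp for regions between 1200 and 1800 bp and 732 bp for those of 800 to 1200 bp. The difference from the last was 637 bp (585 to 704). An island of at least 1500 bp was present in 42.9% of members (39.8% to 46.1%) and 3.70% of the 800 to 1200 bp class. Only 38 members (4.06%) had no island, against 15.4%. Jun had an island of 3100 bp, Fzd8 of 3092 bp and Foxo3 of 2813 bp. The share of a region covered by islands was nearly level, at a median of 75.0% in members, 74.0% in the class in between and 72.6% in the 800 to 1200 bp class, so that open width and island length grew side by side over the 3 classes. Within the members the relation was weak, with a Spearman rho of 0.106 between width and island length over 937 regions.

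Broad regions were richer in G, C and CpG. Members had a median GC content of 61.5% against 58.6% in the 800 to 1200 bp class, a difference of 2.91 points (2.51 to 3.33). In a window of 1 kb centred on the nearest start, the same for every region, the medians were 65.4% and 58.1%, a difference of 7.29 points (6.47 to 7.83), and CpG numbered 8.59 and 5.79 per 100 bp. Part of this window lay outside the narrower regions. At the start itself the classes were close, with 9.95 CpG per 100 bp in the first 100 bp after the start in members, 9.75 in the class in between and 8.48 in the 800 to 1200 bp class. From 700 to 800 bp before the start the values were 4.28, 2.34 and 1.62, and from 700 to 800 bp after it 5.70, 3.35 and 2.25. The classes came closer again by 2 kb, with 1.27, 1.05 and 1.13 from 1900 to 2000 bp upstream and 1.48, 1.20 and 1.24 downstream. Broad promoters therefore had a slower fall of CpG content on both sides rather than a much higher peak. GC content can also affect amplification and cutting, and its part in the measured width was not tested.

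**Figure D2:**
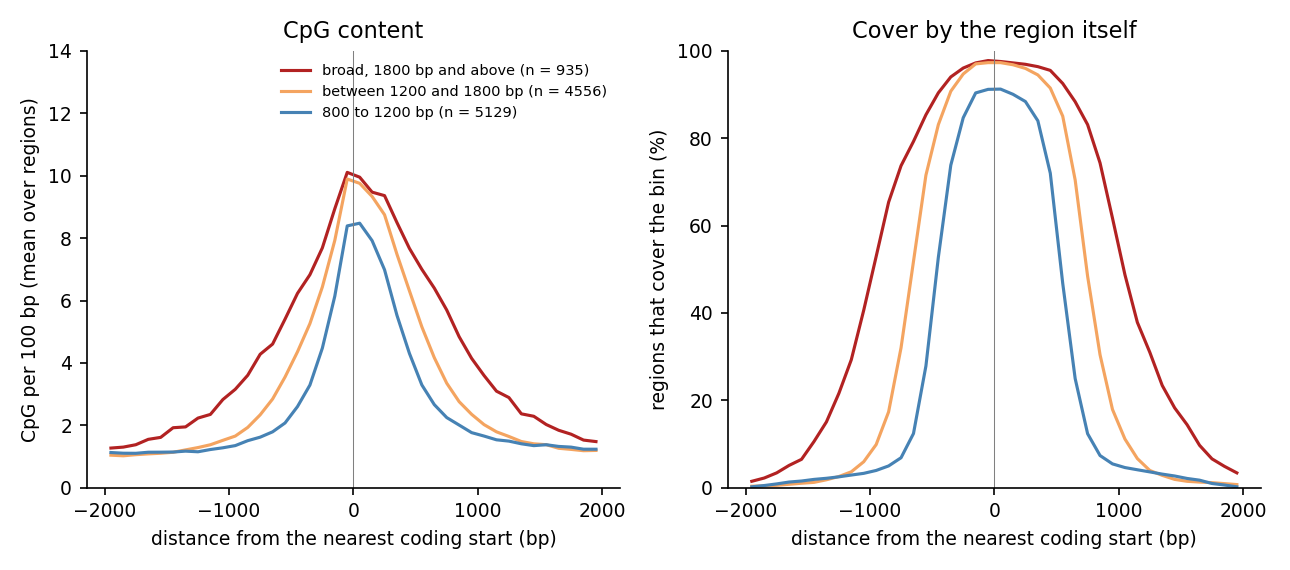
Mean CpG per 100 bp (left) and share of regions that cover each bin in percent (right) by distance from the nearest coding start in bp, on the strand of the gene, for 3 width classes (n = 935, 4556 and 5129 regions whose whole window could be read). The lines are close at the start and separate on both sides, with 5.70, 3.35 and 2.25 CpG per 100 bp from 700 to 800 bp downstream.

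Members extended to both sides of the nearest start, which is the start closest to the centre of the region. This choice favours similar reach on both sides. Both reaches together make up the width that chose the members, so they are described only. The median reach was 972 bp upstream and 1039 bp downstream, against 468 and 546 bp in the 800 to 1200 bp class. The difference between downstream and upstream reach within a region had a median of 60 bp in members (18 to 100) and 59 bp in that class. In members it was 183.5 bp (125 to 249) with basic transcripts and 103.5 bp from 2000 bp, so its size depends on the transcript set and the width limit. The share that reached farther downstream was 54.9% in members and 60.8% in the 800 to 1200 bp class, a difference of -5.97 points (-9.44 to -2.54). This share rests on the same choice of start. Of the bases in members, 39.7% were intron of coding genes and 23.7% lay outside coding genes and any exon, introns of noncoding genes included. Untranslated exon made up 18.8%, noncoding exon 9.26% and coding exon 8.56%. The 800 to 1200 bp class had 37.6%, 24.4%, 20.1%, 8.24% and 9.64% in the same order, so the make-up of both classes was close.

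A coding start lay inside 97.7% of members and 91.2% of the 800 to 1200 bp class. Between the first and the last coding start inside the region lay a median of 274 bp in members, 137 bp in the class in between and 67 bp in the 800 to 1200 bp class, and the span exceeded 500 bp in 37.1%, 20.1% and 7.23%. This span is measured inside the region, so its upper limit is set by the width that chose the members, and it is a description. Members held 3.72 starts on average against 3.02, but a wider region has more room for starts. Within 500 bp of the nearest start they held 2.99 against 3.15, a difference of -0.16 (-0.33 to -0.000181). Starts of noncoding genes lay in 22.4% of members and 9.70% of the 800 to 1200 bp class. In the fixed window within 500 bp of the nearest start the shares were 14.7% and 9.37%, a difference of 5.36 points (3.08 to 7.89), so an excess remained where the room was equal.

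Shared promoters were no more common in broad regions than in those of intermediate width. Most members (797) held the start of 1 coding gene within 1 kb, 136 those of 2 genes and 4 those of 3 genes. Coding starts on both strands lay in or within 1 kb of 13.1% of members, 13.9% of the class between 1200 and 1800 bp and 8.34% of the 800 to 1200 bp class. Within 500 bp of the nearest start the shares were 8.64%, 12.1% and 7.01%, and the difference between the first and the last was 1.63 points (-0.16 to 3.71). The 123 members with starts on both strands had a median level of 6.25 log2 CPM, against 6.00 for the 814 with starts on 1 strand. The 4 regions with 3 genes were those of Bet1l, Gm45785 and Ric8a (15 starts), of 4933427D14Rik, Gm43951 and Txndc17 (7 starts), of Gm29427, Pfkfb2 and Yod1 (6 starts) and of Arhgap39, C030006K11Rik and Lrrc24 (4 starts).

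In 10 genes 2 separate broad promoter regions were found. They were Aff1, Bcor, Elf2, Foxn3, Foxp1, Plec, Pprc1, Runx1, Synj2 and Zbtb20. The Synj2 region of 2802 bp contained no coding start and lay within 1 kb of one. Runx1, a Runt-domain factor of blood and skeletal cells, had regions of 2401 bp (6.89 log2 CPM) and 1996 bp (5.58) with 125571 bp between them. The region with the higher level is the one whose start sequence is shown above. In Zbtb20 the level differed more, with 8.31 and 5.86 log2 CPM in regions 486403 bp apart. Plec, which encodes the cytoskeletal linker plectin, had its pair only 6025 bp apart with 6.96 and 6.44 log2 CPM.

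Genes with broad promoters were longer. The gene at the nearest start spanned a median of 43.7 kb for members, 30.4 kb for the class in between and 25.4 kb for the 800 to 1200 bp class, with a difference of 18.3 kb (11.2 to 23.8) from the last. Within members, width and gene length had a Spearman rho of 0.0423 over 937 regions. Annotated transcripts per gene had medians of 6, 6 and 5. Another region of the list, not within 1 kb of a coding start, lay within 10 kb of 62.6% of members. The share in the 800 to 1200 bp class was 56.7%, a difference of 5.97 points (2.55 to 9.30).

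Motifs were counted per kb, because a longer sequence holds more matches to any short string. Of 10 motifs, searched as exact letters on both strands, the GC box had the largest excess in members, with 3.47 matches per kb against 2.82 in the 800 to 1200 bp class (difference 0.64, 0.55 to 0.74) and 3.25 in the class between 1200 and 1800 bp. In the 1 kb around the start the values were 4.74 and 2.83. The HRE core (ACGTG or GCGTG), which is contained in the sites bound by HIF, had 3.46 and 3.33 matches per kb, a difference of 0.133 (0.0371 to 0.231), and 3.53 in the class between 1200 and 1800 bp. The difference was 0.0777, 0.0369 and 0.0417 with starts within 500 bp, with regions that cover a start and with basic transcripts, each with an interval that includes 0. In the 1 kb around the start it had 3.70 in members and 3.25 in the 800 to 1200 bp class, a difference of 0.448 (0.316 to 0.583). Where coding starts spanned at most 100 bp, a repeat described below, this difference was 0.187 (-0.0152 to 0.397). An HRE core was present in 98.7% of members, 90.4% of the 800 to 1200 bp class and 77.1% of all coding promoter regions, shares that rise with length. In the 1 kb window the shares were 93.6% and 90.6%, a difference of 3.02 points (1.11 to 4.65). Both motifs contain CG and their counts move with CpG content.

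Ets, CCAAT, Nrf1 and CRE matches were less dense over the whole length of members. Ets sites had 0.213 matches per kb in members and 0.395 in the 800 to 1200 bp class, the CCAAT box 1.04 and 1.29, the Nrf1 site (GCATGCGC) 0.0655 and 0.110, and the CRE 0.0299 and 0.0473. The class between 1200 and 1800 bp lay in between, with 0.317 Ets, 1.16 CCAAT, 0.101 Nrf1 and 0.0427 CRE matches per kb. The share of regions with at least 1 Ets site was 33.7% in members and 30.2% in the 800 to 1200 bp class. In the 1 kb around the start, a window of equal length in both classes, an Ets site was present in 19.7% of members and 29.9% of the 800 to 1200 bp class, a difference of -10.1 points (-12.9 to -7.19). A CCAAT box was present there in 53.9% and 67.8%. An Nrf1 site was present there in 5.02% and 7.56%, a difference of -2.54 points (-3.98 to -0.807), while its rate per kb differed by -0.0217 (-0.0417 to 0.000897). A CRE was present there in 4.06% and 4.50%, a difference of -0.444 points (-1.69 to 1.11), and its rate differed by -0.00590 per kb (-0.0195 to 0.0104). In the 100 bp before the start, Ets sites numbered 0.0503 and 0.134 per 100 bp and CCAAT boxes 0.171 and 0.253. Because the span of the starts differed between the classes, the counts were repeated, after the data had been seen, in the 354 members and 2747 regions of the 800 to 1200 bp class whose coding starts spanned at most 100 bp. There 20.1% and 28.0% held an Ets site in the 1 kb around the start, and 55.4% and 69.3% a CCAAT box. In the same regions the Nrf1 rate differed by -0.0450 per kb (-0.0727 to -0.00978) and the CRE rate by -0.00732 (-0.0265 to 0.0198). The TATA box was also less frequent in the 1 kb around the start of members, with a match in 12.5% against 21.3%. In regions with closely spaced starts the shares were 12.4% and 23.6%. In the 100 bp before the start TATA boxes numbered 0.0203 and 0.0238 per 100 bp. Farther out, from 400 to 500 bp before it, they numbered 0.0225 and 0.0630. The gap was therefore small just before the start and larger farther out. Over the whole region TATA box rates were closer, 0.205 and 0.233 per kb, and 0.211 in the class between 1200 and 1800 bp. For the E-box (CACGTG), whose share was 21.2% and 21.1% in the 1 kb around the start, the difference was 0.124 points (-2.62 to 3.07).

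**Figure D3:**
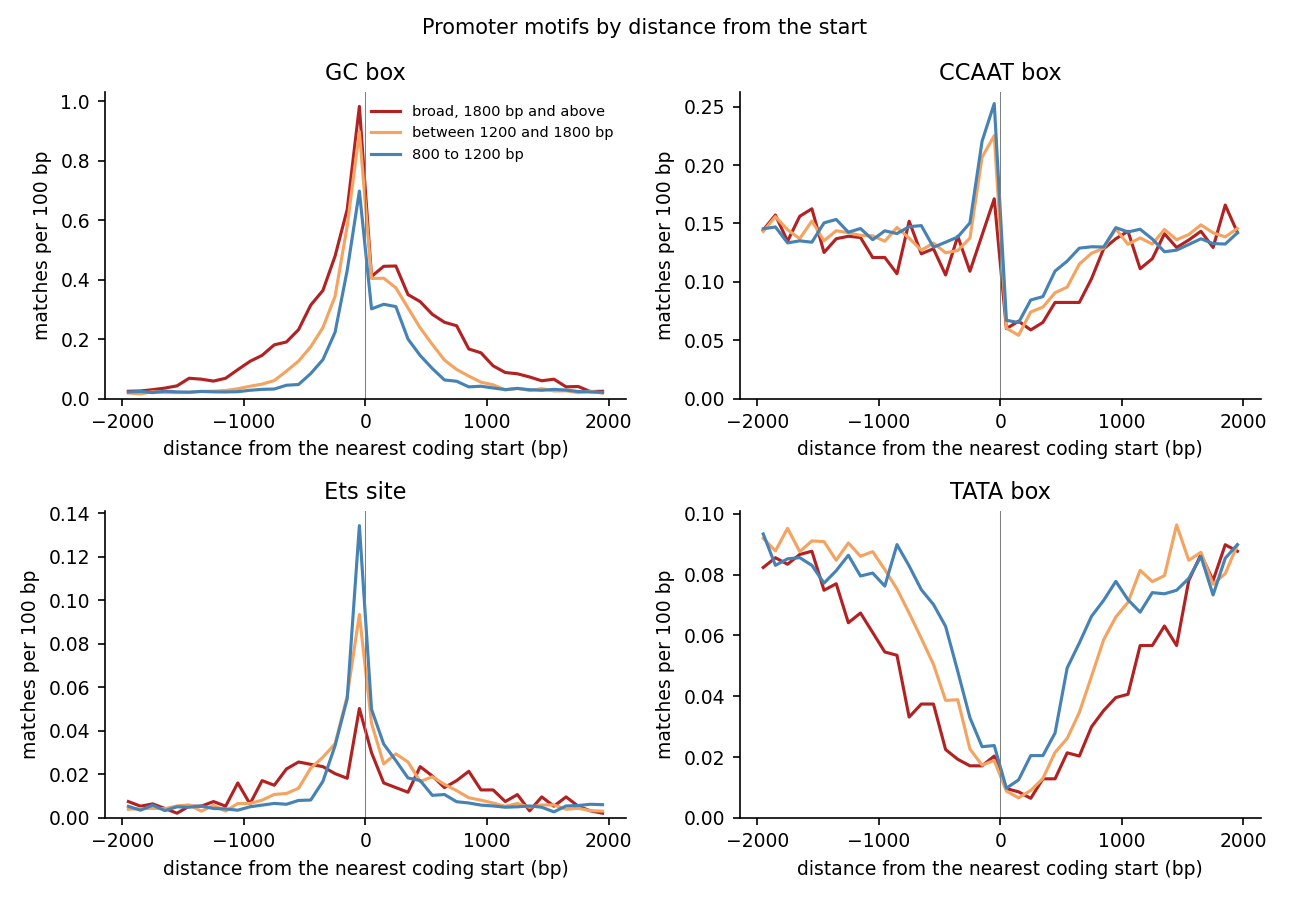
Matches per 100 bp to the GC box, CCAAT box, Ets site and TATA box by distance from the nearest coding start in bp, for the 3 width classes. GC boxes are spread more widely around the start in broad regions, and the peaks of CCAAT boxes and Ets sites before the start are lower, at 0.171 against 0.253 and 0.0503 against 0.134 in the last 100 bp.

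AP-1 matches were found in 26.4% of members and 14.6% of the 800 to 1200 bp class, but per kb the values were 0.165 and 0.161, a difference of 0.00312 (-0.0178 to 0.0250), or 0.0231 (0.00238 to 0.0449) with regions that cover a start. TEAD sites (GGAATG), bound by the partners of YAP, had 0.488 and 0.478 matches per kb, a difference of 0.00946 (-0.0267 to 0.0466). In the 1 kb around the start the values were lower in members for TEAD, with 0.398 and 0.463 and a difference of -0.0648 (-0.109 to -0.0186), but in regions with closely spaced starts the difference was -0.0132 (-0.0854 to 0.0665). For AP-1 they were 0.104 and 0.126 in that window, a difference of -0.0214 (-0.0435 to 0.00334), and 9.18% and 11.7% of regions held a match, a difference of -2.55 points (-4.46 to -0.356). In regions with closely spaced starts the AP-1 rate differed by -0.0153 (-0.0514 to 0.0285). Against regions between 1200 and 1800 bp, with 0.138 AP-1 and 0.450 TEAD matches per kb over their whole length, members were higher by 0.0266 (0.00673 to 0.0477) and 0.0378 (0.00296 to 0.0737). Island cover divided the members in these motifs. The 56 members with under 20% of their bases in islands had 0.411 AP-1 and 0.717 TEAD matches per kb, against 0.0834 and 0.379 in the 395 with at least 80%. Their TATA boxes numbered 0.446 against 0.119 per kb and their GC boxes 0.507 against 4.59. Islands were defined by G, C and CpG content, so the direction for GC and TATA boxes largely follows from the split. The same contrast by island cover stood in the 800 to 1200 bp class, with 0.400 and 0.0933 AP-1 matches per kb. It was therefore not particular to broad regions. Level per kb had a median of 4.26 log2 CPM per kb in members with little island and 5.12 in those with much.

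**Figure D4:**
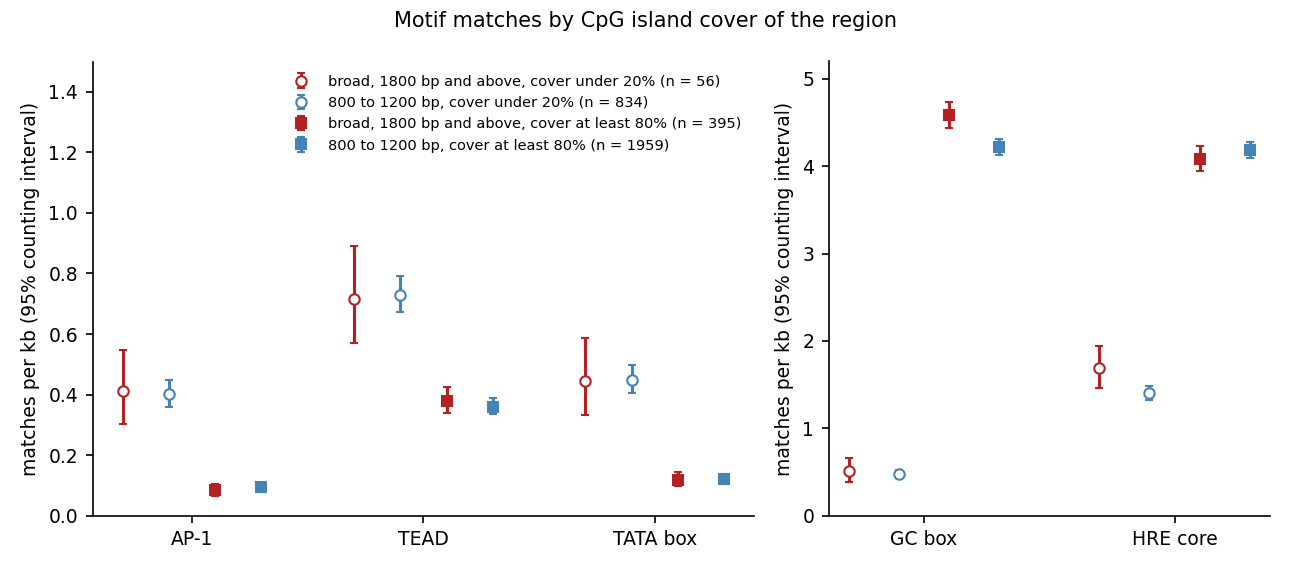
Motif matches per kb with 95% counting intervals in regions with under 20% (open circles) and at least 80% (filled squares) of their bases in CpG islands, for broad regions (red, n = 56 and 395) and regions of 800 to 1200 bp (blue, n = 834 and 1959). Regions with little island have more AP-1, TEAD and TATA box matches and fewer GC box and HRE core matches in both width classes.

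The widest members with little island were Ptges (3169 bp, 5.56 log2 CPM), Synj2 (2802 bp, 6.08), Kctd10 (2796 bp, 6.01), the region of Nat14 and Ssc5d (2517 bp, 6.37), Ddr2 (2492 bp, 5.86), Ltbp1 (2431 bp, 5.32), Map1a (2378 bp, 5.79) and Adamts12 (2257 bp, 5.40). Ptges held 3 AP-1 matches, Synj2, Kctd10, Ddr2 and the region of Nat14 and Ssc5d held 2 each, Map1a held 1, and Ltbp1 and Adamts12 held none. The region of Synj2 contained no coding start, and its matches lay 2647 and 3080 bp downstream of the nearest start. Ltbp1 encodes a protein that stores latent TGF-beta, and Adamts12 a matrix protease.

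The genes of the members were described with 23 lists of genes, 1125 of which had a promoter region and 118 a broad one. Each share is set beside 7.63% for all coding genes with a promoter region, and the median over such genes of their widest promoter region was 1141 bp. Since width chose the members, these counts are a description, and 17 lists lay above that value and 6 below it. For 2 of the 17 the side changed with the width limit: collagen genes lay below the share of all genes from 1600 bp (11.8% against 14.2%) and from 2000 bp (2.94% against 3.61%), and mesenchymal and osteocyte markers from 1600 bp (13.3% against 14.2%). The 6 below it were markers of other lineages, 2 lists of ribosomal proteins, oxidative phosphorylation, the proteasome and Zfp genes.

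Of 35 osteogenic and mesenchymal transcription factors with a promoter region, 13 had a broad one (37.1%), and the median of their widest regions was 1654 bp. They included Lef1 (2528 bp, 5.35 log2 CPM), the nuclear partner of beta-catenin, Runx1 (2401 bp), Tbx18 (2209 bp, 5.89) and Zeb1 (2180 bp, 4.83). Twist1, Sox4, Prrx1, Nfib, Zeb2, Runx3, Bhlhe40 and Sox9 had between 1816 and 2037 bp. The region counted for Prrx1, a marker of limb mesenchyme, did not contain a coding start and lay within 1 kb of one. Their median level of 5.52 log2 CPM was below the 6.04 of all members, so these factors had wide regions at a moderate level.

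Feedback inhibitors of signalling had a broad promoter in 9 of 26 genes (34.6%). Dusp6 (2571 bp, 6.59 log2 CPM) and Dusp4 (2560 bp, 6.01) encode phosphatases that switch off MAP kinases, and Spred2 (2455 bp, 6.44) encodes an inhibitor of Ras signalling. Skil (2319 bp), a repressor of Smad proteins, and Socs2 (2071 bp), a brake on cytokine receptors, came next. Socs1 had the highest level of this list, at 7.41 log2 CPM in 1892 bp. Tnfaip3, which limits NF-kappaB, was the member of the list without a CpG island and had its lowest level, 4.96 log2 CPM.

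Among immediate-early genes, which are transcribed within minutes of a stimulus, 7 of 26 had a broad promoter (26.9%) with a median level of 6.62 log2 CPM. Jun had 2190 bp (7.06), Dusp1 2174 bp (6.62), Ier5 2084 bp (6.11), Egr1 2029 bp (7.39) and Klf4 1964 bp (6.65). Targets of YAP and TEAD had 5 of 18 (27.8%), with Ccn2 (CTGF, 2255 bp, 6.12) and Arhgef17 (2216 bp, 6.21) the widest. Ccn2 had an island of 889 bp and Dlc1 none, while Ajuba, Arhgef17 and Crim1 had islands of 1965 to 2350 bp. Kruppel-like and Sp factors, which bind the GC box, had 6 of 23 (26.1%) with a median of 6.94 log2 CPM, led by Klf13 (2766 bp, 7.33), Klf9 (2458 bp, 6.93) and Sp3 (2297 bp, 7.07).

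The TGF-beta and BMP pathway had 8 of 34 (23.5%), among them the receptors Bmpr2 (2331 bp, 6.18 log2 CPM), Acvr2b (2243 bp, 5.29), Acvr1 (1992 bp, 5.83), Tgfbr1 (1931 bp, 7.08) and Acvr2a (1818 bp, 5.57), the ligand Bmp4 (1987 bp, 5.72) and the signal transducer Smad3 (1832 bp, 6.12). The Wnt pathway had 8 of 46 (17.4%), and 5 of these were Frizzled receptors, namely Fzd2 (2203 bp, 6.06), Fzd5 (2167 bp, 7.21), Fzd1 (2050 bp, 6.12), Fzd8 (2021 bp, 6.21) and Fzd7 (1833 bp, 6.59). Islands at the Frizzled genes measured 2381 to 3092 bp. Rspo3, a Wnt enhancer, had 2182 bp at a lower 4.72 log2 CPM, with no coding start inside.

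Hypoxia response genes had 6 of 40 (15.0%). They were Vegfa (2472 bp, 6.46 log2 CPM), which drives vessel growth, Lox (2335 bp, 6.38), which cross-links collagen, Mxi1 (2241 bp, 6.63), Hk2 (2127 bp, 6.42) and Ldha (2034 bp, 5.61) of glycolysis, and Bhlhe40 (1818 bp, 7.33). Since the list pools vehicle and FG-4592 cultures, their widths with and without the drug cannot be told apart. Cell cycle regulators had 5 of 30 (16.7%), with Cdk6, Cdkn1a (p21, 2262 bp, 6.64), Ccnd2 (2255 bp, 5.41), Ccne2 (2127 bp, 6.62) and Cdkn2c (2118 bp, 6.07). Among mesenchymal and osteocyte markers 2 of 15 (13.3%) were broad, Pdgfra (2473 bp, 6.14) and Vim (2013 bp, 6.95). Markers of other lineages had 0 of 5.

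Forkhead factors had 6 of 33 (18.2%), led by Foxn3 (2461 bp) and Foxo3 (2170 bp, 7.02 log2 CPM). Sox factors had 2 of 12 (16.7%), T-box factors 1 of 7 (14.3%) and Hox genes 4 of 28 (14.3%), namely Hoxc11, Hoxa10, Hoxc13 and Hoxc9. Chromatin modifiers had 14 of 96 (14.6%), from Arid1b, a subunit of the BAF remodeller, and Kdm7a (2488 bp, 6.06) to Kdm5a (1805 bp, 5.78). Histone genes had 6 of 38 (15.8%), but these lay in only 3 regions of chromosome 13, each shared by a pair of histone genes. Collagen genes, below all genes at both other limits, had 4 of 34 (11.8%) in 3 regions, where Col4a1 and Col4a2 shared a region of 1843 bp (5.30) and Col5a1 (1808 bp, 6.32) and Col5a2 (2063 bp, 5.11) had 1 each.

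Housekeeping complexes were rarely broad although nearly all of their genes had a promoter region. The counts were 2 of 77 for cytosolic ribosomal proteins (2.60%), 1 of 77 for mitochondrial ribosomal proteins (1.30%), 2 of 74 for nuclear subunits of oxidative phosphorylation (2.70%) and 1 of 44 for the proteasome (2.27%). The few members were Rpl41 (2552 bp), Rpl7 (2220 bp), Mrpl14 (1923 bp), Uqcrh (2490 bp), Atp5j (2026 bp) and Psme4 (2054 bp). The medians of the widest regions in these lists ran from 1061 to 1168 bp, close to the 1141 bp of all genes, so their promoters were of common width and not narrow. Zfp zinc finger genes also had a median of 1126 bp and only 11 of 323 broad (3.41%).

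**Figure D5:**
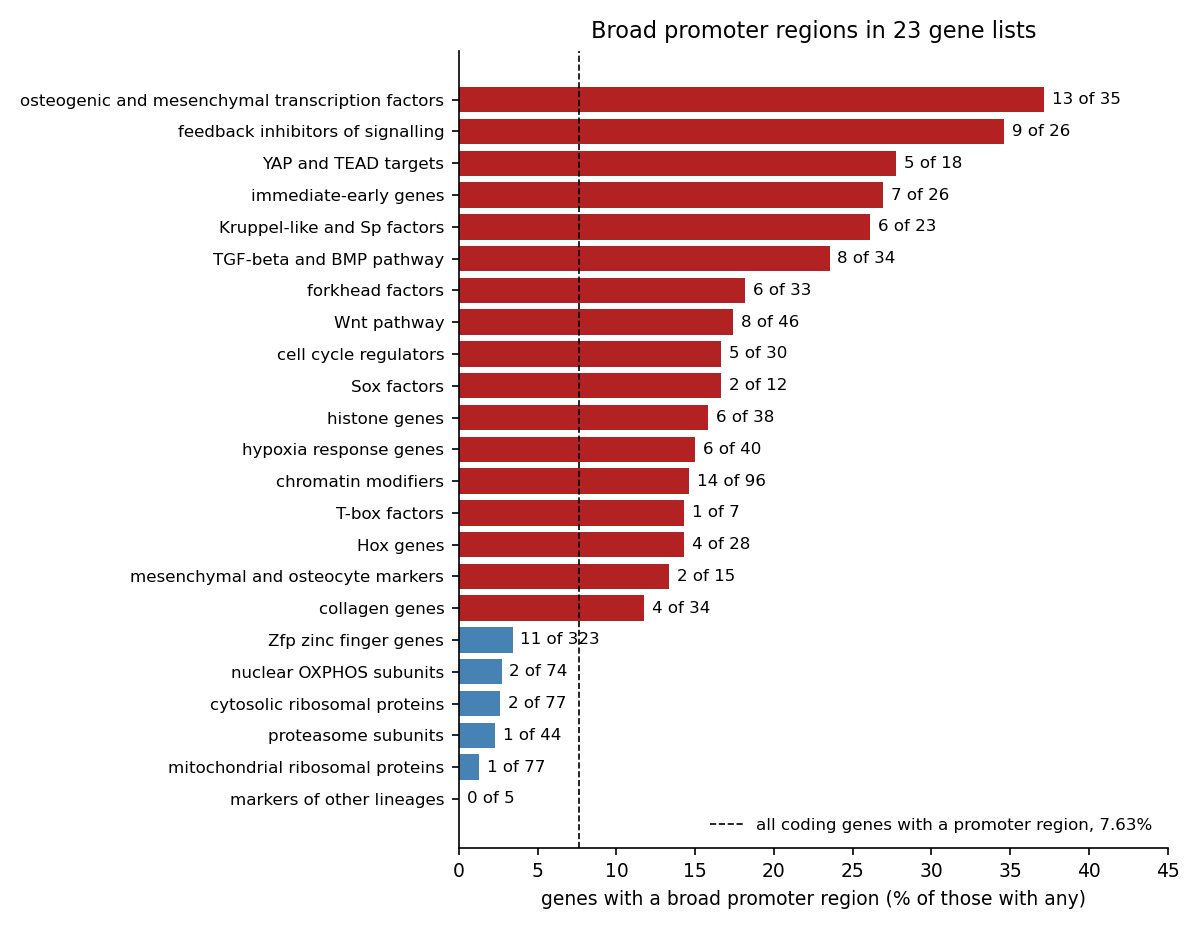
Share of genes with a broad promoter region among the genes of each of 23 lists that had any promoter region, in percent, with counts beside the bars and the share of all coding genes (7.63%) dashed. Osteogenic and mesenchymal transcription factors are highest with 13 of 35, and ribosomal, oxidative phosphorylation, proteasome and Zfp genes lie below the line.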

How the data were processed

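ATAC-seq was performed by the authors on 11 MPC2 cultures. Reads were trimmed and aligned to mm10 with Bowtie2, duplicates were removed with Picard (2.17.8), peaks were called with MACS2 (2.2.7.1) and merged over samples, blacklisted regions were removed, cuts were counted per region and edgeR (3.24.3) was used for normalisation, per the submitters' processing notes and the study's methods. A shift for the Tn5 offset was not given in the sources used here, and a library removed for quality was not analysed here.

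The deposited list gives each region's chromosome, start and end (other columns hold no unit) and the authors' average log2 CPM, a unit inferred from the values. It has no value per sample, so no test across samples could be run, and the comparisons between groups were left out. The depth per sample is unknown, and intervals and shares cover counting error only.

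Transcript starts came from GENCODE vM21 and sequence from GRCm38. Regions within 1000 bp of a protein-coding start were assigned to width classes, and the nearest start was the one closest to the centre of the region. Level per kb is log2 of CPM per kb. Shares have 95% Wilson intervals and their differences Newcombe intervals, medians have order-statistic intervals, and motif rates have Poisson intervals. The statistics were checked on simulated data. Islands can be overestimated at both ends, because a 200-bp window is counted whole.

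The members and the gene lists were chosen with earlier results of these data known. The genes named are the 12 widest members, the 8 highest and lowest by level or level per kb, regions with 3 coding genes, up to 5 members per list by width and 3 regions on each side of the limit. One member chosen by this rule is not reported here. Genes with 2 broad regions, the widest members with little island and the remaining list members were named after their values were seen. Alternatives varied the width limit, comparison class, distance to a start, transcript set, chromosomes, sequence window and island rule. Python 3.11.15 was used with numpy 2.4.6, pandas 2.3.3, scipy 1.17.1, statsmodels 0.14.6 and matplotlib 3.10.9.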

Additional observations from a re-analysis of the deposited data

How the results depend on the processing

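No paired analysis was possible because cultures were pooled into 1 value per region. The number of members followed the width limit by construction: from 1600 bp there were 1754 regions at 1990 genes and 200 list genes, and from 2000 bp there were 450 regions at 507 genes and 72 list genes. With these limits the level difference from the 800 to 1200 bp class was 1.11 and 1.36 log2 CPM. From 1600 bp the island difference was 515.5 bp and 2 of the 10 motifs had a higher rate than in the 800 to 1200 bp class, in place of 4. The count is of signs alone, and of those 4 the AP-1 and TEAD differences had intervals that include 0. From 2000 bp the difference in starts on both strands was 2.11 points (-0.512 to 5.36), an interval that includes 0, that in noncoding starts 15.9 points and the downstream extension 103.5 bp.

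Against regions between 1200 and 1800 bp, several differences shrank: level to 0.55, GC content to 1.03 points, island length to 358 bp, GC box matches to 0.213 per kb, CCAAT boxes to -0.115, Ets sites to -0.105, starts per region to 0.0175 and noncoding starts to 7.53 points. The signs of level per kb (-0.00643), starts on both strands (-0.727 points) and HRE core matches per kb (-0.0671) turned, each with an interval that includes 0. The cause was not tested.

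With regions that cover a start, the difference in level per kb was 0.15. With basic transcripts, the difference in starts was 0.339 and the extension 183.5 bp. In the 1 kb around the start the GC difference was 7.29 points. Within 50 kb the share with another region not within 1 kb of a coding start differed by 2.14 points. In the alternatives chosen after seeing the data, starts within 500 bp of the nearest start differed by -0.163, starts on both strands by 1.63 points (-0.158 to 3.71) and noncoding starts by 5.36 points, and 2 motifs had a higher rate around the start of regions with closely spaced starts. Without chromosome 16, 3 of the 10 motifs had a higher rate, and the AP-1 difference was -0.00225 per kb (-0.0233 to 0.0198). Without depth per sample, it is unknown how far shallow libraries limit the width of weak promoters.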

Other observations

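Regions at least 1800 bp wide without a coding start within 1 kb numbered 262, and 36 of these lay within 1 kb of the start of a noncoding gene. They entered none of the comparisons above.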
